A study of Mus musculus with 6 samples.

Results

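The 39 genes described here drive mitosis and cytokinesis: mitotic kinases, kinesins, kinetochore and checkpoint components, spindle assembly factors and proteins of the cleavage furrow. They were chosen by name, with a minimum mean of 10 estimated counts over the 6 libraries. All 39 listed genes met that minimum, out of 55536 genes in the table, and all 39 were among the 14318 genes that entered the test. Total RNA was sequenced from cultured OT-I T cells, taken from lymph nodes of mice, after 2 h with disulfiram (DSF), a drug against alcohol dependence that inhibits aldehyde dehydrogenases, or with its solvent dimethyl sulfoxide (DMSO). Both groups held 3 libraries. The OT-I receptor is a transgene that recognises an ovalbumin peptide, and the labels give both groups as wildtype. The labels name no dose, mouse age or stimulus. They call the replicates biological without naming separate animals or cultures, so p-values measure the spread between these libraries, which may be technical. The deposited columns are headed by letters, and every direction below rests on reading their code DF as DSF and DO as DMSO. In bulk RNA, fewer cells in mitosis and less of these transcripts per cell cannot be told apart.

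The libraries held 18082264 to 20951998 estimated counts with DSF and 18528236 to 21893720 with DMSO, and each member averaged between 638 and 19803 counts. Mitochondrially encoded genes took 2.07 to 2.2% of the counts with DSF and 2.12 to 2.30% with DMSO. Markers of CD8 T cells were abundant, their summed level being 2360.0 to 2413 TPM in the DSF libraries and 2568 to 2593 TPM in the DMSO libraries, and 5 of 8 were lower with DSF. Natural killer cell markers summed to 22.6 to 24.1 TPM in the DSF libraries and 28.6 to 29.4 TPM in the DMSO libraries, with 2 of 3 tested lower. Those 2, Eomes and Gzma, made up most of the sum, and Klrb1c did not pass (log2 fold change 0.10). B cell markers summed to 237 to 246 TPM in the DSF libraries and 239.9 to 263 TPM in the DMSO libraries, with 2 of 12 tested lower. For myeloid and dendritic cells the sums were 47.7 to 51 TPM in the DSF libraries and 49.7 to 54.6 TPM in the DMSO libraries, with 3 of 9 tested lower and Siglech at 0 in every library. For CD4 and regulatory T cells they were 31.3 to 32.9 TPM in the DSF libraries and 27.7 to 31.5 TPM in the DMSO libraries, with 2 of 5 tested higher and 1 lower. For stromal, endothelial and erythroid cells they were 17.7 to 20.3 TPM in the DSF libraries and 20.1 to 22.2 TPM in the DMSO libraries, with 0 of 3 tested called. Counts of called markers stand against 11.3% lower and 11.6% higher among all genes tested. The part of these markers in the changes described below was not tested.

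Mitosis separates replicated chromosomes on a microtubule spindle. Cyclin B with CDK1 and the Polo and Aurora kinases bring cells into it, kinetochores tie chromosomes to the spindle, and a checkpoint holds back the anaphase-promoting complex until every kinetochore is attached. Most of these genes are transcribed in G2 and M phase through complexes built on the MuvB core, which contact a short promoter element, the cell cycle genes homology region (CHR), and commonly act together with the CCAAT-binding factor NF-Y. The same genes are repressed in resting cells, and their messages accumulate in T cells that have been activated and divide.

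The sequences are shown because these promoter letters were not used to choose the genes. In the window from 250 bases before to 50 bases after each annotated start, taken from RefSeq on GRCm38.p6, TTTGAA, the canonical CHR, was present on either strand in 28 of 36 windows of the members (77.8%, Wilson 95% interval 61.9 to 88.3%) and in 17.9% of all 32851 windows. CCAAT, the NF-Y box, was present on either strand in 26 of the 36 windows (72.2%, 56.0 to 84.2%) and in 37.4% of all windows. Both stood in 24 windows of members (66.7%) and in 6.95% of all windows. The motifs were counted separately, and adjoining copies can share a T. These shares describe the windows, which belonged to 34 of the 39 members. Ect2 and Prc1 each had 2 overlapping windows with the same sites, which the intervals treat as separate. A match is not shown to be a bound site. Printed here, from 120 bases before to 50 bases after the start and with every TTTGAA and CCAAT on either strand in capitals, are 3 members that fell and hold both motifs (Plk1, Cdc20 and Cenpa), 1 that fell and holds neither (Nuf2), 1 that rose (Ect2, from 1 of its 2 overlapping windows) and 1 that did not pass (Racgap1).
Plk1, chr7:122159315-122159484, plus strand: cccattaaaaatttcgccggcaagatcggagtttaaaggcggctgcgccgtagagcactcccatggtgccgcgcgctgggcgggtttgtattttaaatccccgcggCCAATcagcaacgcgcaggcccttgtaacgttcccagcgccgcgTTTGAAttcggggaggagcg
Cdc20, chr4:118437294-118437463, minus strand: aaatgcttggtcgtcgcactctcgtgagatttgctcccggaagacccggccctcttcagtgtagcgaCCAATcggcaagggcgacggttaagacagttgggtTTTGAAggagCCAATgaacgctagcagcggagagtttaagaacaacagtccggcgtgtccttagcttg
Cenpa, chr5:30666766-30666935, plus strand: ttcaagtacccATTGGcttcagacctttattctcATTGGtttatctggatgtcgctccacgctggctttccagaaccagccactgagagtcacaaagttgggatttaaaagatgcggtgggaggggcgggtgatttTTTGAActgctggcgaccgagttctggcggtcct
Nuf2, chr1:169531415-169531584, minus strand: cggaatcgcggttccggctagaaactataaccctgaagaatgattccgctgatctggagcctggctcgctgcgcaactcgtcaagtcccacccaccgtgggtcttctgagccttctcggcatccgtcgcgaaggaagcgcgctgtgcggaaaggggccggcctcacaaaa
Ect2, chr3:27153805-27153974, minus strand: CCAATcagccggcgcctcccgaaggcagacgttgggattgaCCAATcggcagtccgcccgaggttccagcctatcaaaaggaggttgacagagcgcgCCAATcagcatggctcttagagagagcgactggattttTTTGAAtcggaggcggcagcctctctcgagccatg
Racgap1, chr15:99651607-99651776, minus strand: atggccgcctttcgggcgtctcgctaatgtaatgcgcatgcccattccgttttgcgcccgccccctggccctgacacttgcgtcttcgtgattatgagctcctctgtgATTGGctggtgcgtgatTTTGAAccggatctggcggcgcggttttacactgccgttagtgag
Of the 18 windows of members that fell, 15 held TTTGAA and 13 held both motifs. Among the 16 windows of members that did not pass, 11 held TTTGAA and 9 held both. The 2 windows of Ect2 held both as well, so the motifs were found in members that fell, in the one that rose and in members that did not pass. Of the 36 TTTGAA matches in member windows, 28 began within 50 bases of the start, and of the 56 CCAAT matches 47 began in the 150 bases before it. Sites of Ect2 and Prc1 were counted once in each of their overlapping windows. Positions were not counted over all windows, so these counts are not shown to be particular to the members.

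**Figure D1:**
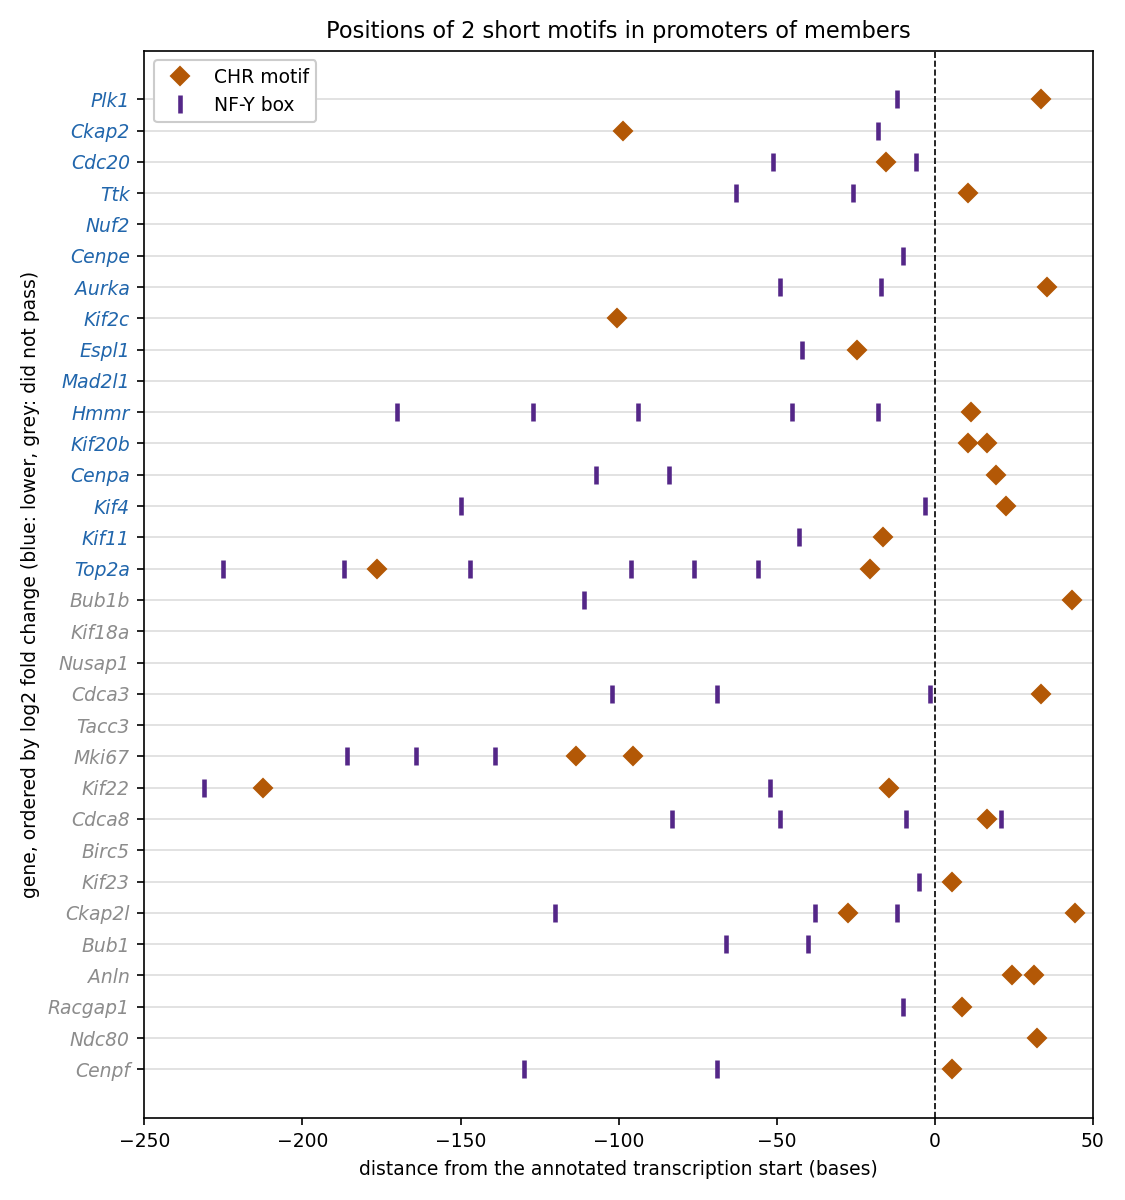
Distance in bases from the annotated transcription start of each CHR motif (diamonds) and NF-Y box (ticks) in the 32 members with 1 promoter window, ordered from the most negative log2 fold change at the top. Blue names fell and grey names did not pass; most diamonds lie within 50 bases of the start in both.

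After 2 h of DSF, transcripts of 21 of 39 mitosis and spindle genes were slightly lower, and those of one, Ect2, were higher. Of the 39 genes, 21 fell, 1 rose and 17 did not pass, by edgeR's quasi-likelihood test with a Benjamini-Hochberg adjusted p under 0.05 over all genes tested. The share that fell was 53.8%, where 11.3% of all genes tested fell, and the share that rose was 2.56%, where 11.6% of all genes rose. All genes tested were not matched to the members in counts, which bear on whether a small change is called. The part of this in the difference between the shares was not tested. The median log2 fold change was -0.14 over the 39 genes and -0.003 over all genes tested. At an adjusted p under 0.01, 19 fell, where 7.4% of all genes did. The changes were small: the 21 genes that fell did so by 8.81 to 19.4%, with standard errors of 0.032 to 0.060 on the log2 scale. Ect2 rose 1.39-fold. Markers of CD8 T cells also fell, 5 of 8 of them (62.5%), and their part was not tested. The median log2 fold change of those 8 markers was -0.13, close to that of the 39 genes. For the 17 genes that did not pass, unadjusted 95% intervals of the log2 fold change lay between -0.22 and 0.16, so a change of the size of that of Ect2 was outside them. The median change of the 21 genes that fell, -0.19, lay inside the intervals of Bub1b (down to -0.22) and Kif18a (down to -0.21). Falls of that size are not excluded for these genes.

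Levels are given as CPM, each count scaled to the size of its library, or as TPM, which is scaled to gene length too. Library by library, the CPM of the 3 DSF libraries all lay below those of the 3 DMSO libraries in 23 members (59% of them, against 17.9% of all genes tested) and all above in 1, Ect2; over all genes, 35.4% were apart in either direction. In 15 members the groups overlapped. In TPM, all 3 DSF libraries lay below in 18 members (46.2%) and above in 2, and the share over all genes was not computed. Among the members called lower, Mad2l1, Espl1, Kif20b and Kif4 overlapped in TPM. The summed level of the members was 2789, 2756 and 2703 TPM in the DSF libraries, against 2936, 2946 and 2986 TPM in the DMSO libraries, and the groups did not overlap. In mean ± SD this was 2749 ± 43.5 TPM with DSF and 2956 ± 26.6 TPM with DMSO (n = 3 each), a ratio of 0.930. All 3 DSF libraries were alike in this: the median member stood at -0.14, -0.14 and -0.15 on the log2 scale relative to the DMSO mean in DSF libraries 1, 2 and 3. On log2(TPM + 1), with limma, 7 of the 39 genes were called, 6 lower and Ect2 higher. In that setting 9.66% of all genes were called in either direction. The calls of Aurkb, Ckap2, Espl1, Hmmr, Incenp, Kif11, Kif20b, Kif2c, Kif4, Mad2l1, Plk1, Prc1, Top2a, Tpx2 and Ttk ended.

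**Figure D2:**
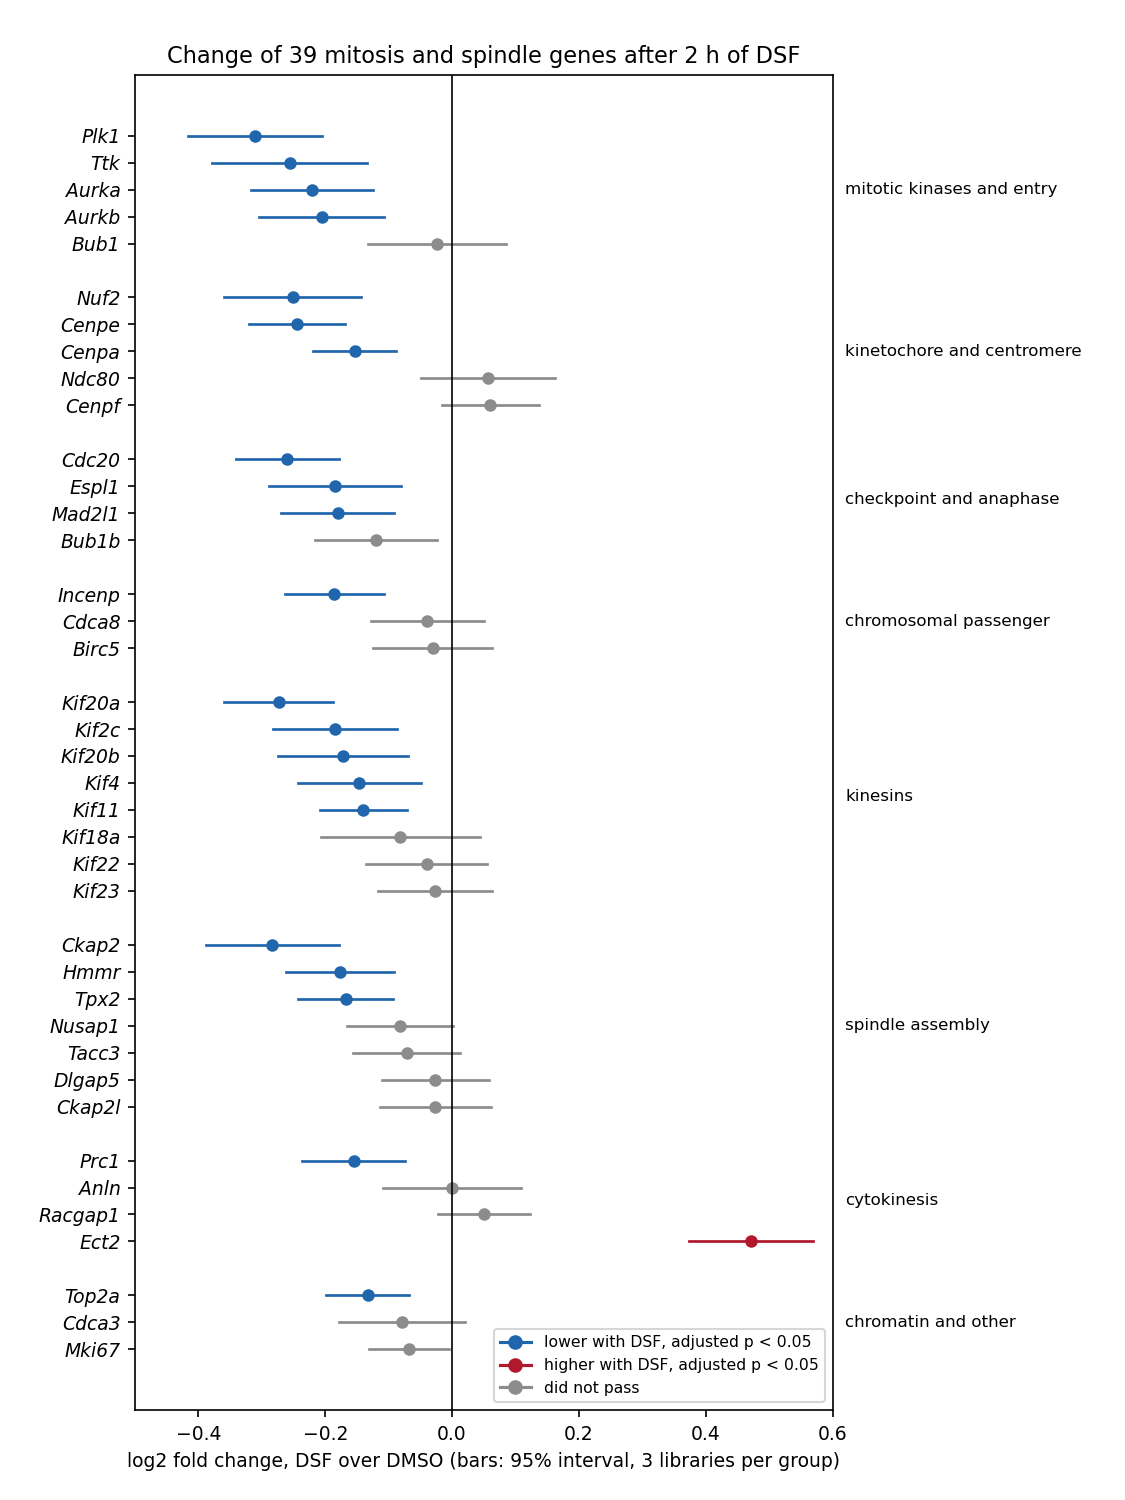
Log2 fold change of each of the 39 genes, DSF over DMSO, on the horizontal axis, with bars for the 95% interval from 3 libraries per group, arranged by role. The 21 genes that fell (blue) lie between -0.31 and -0.13, Ect2 (red) lies at 0.47, and 17 genes (grey) did not pass.

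**Figure D3:**
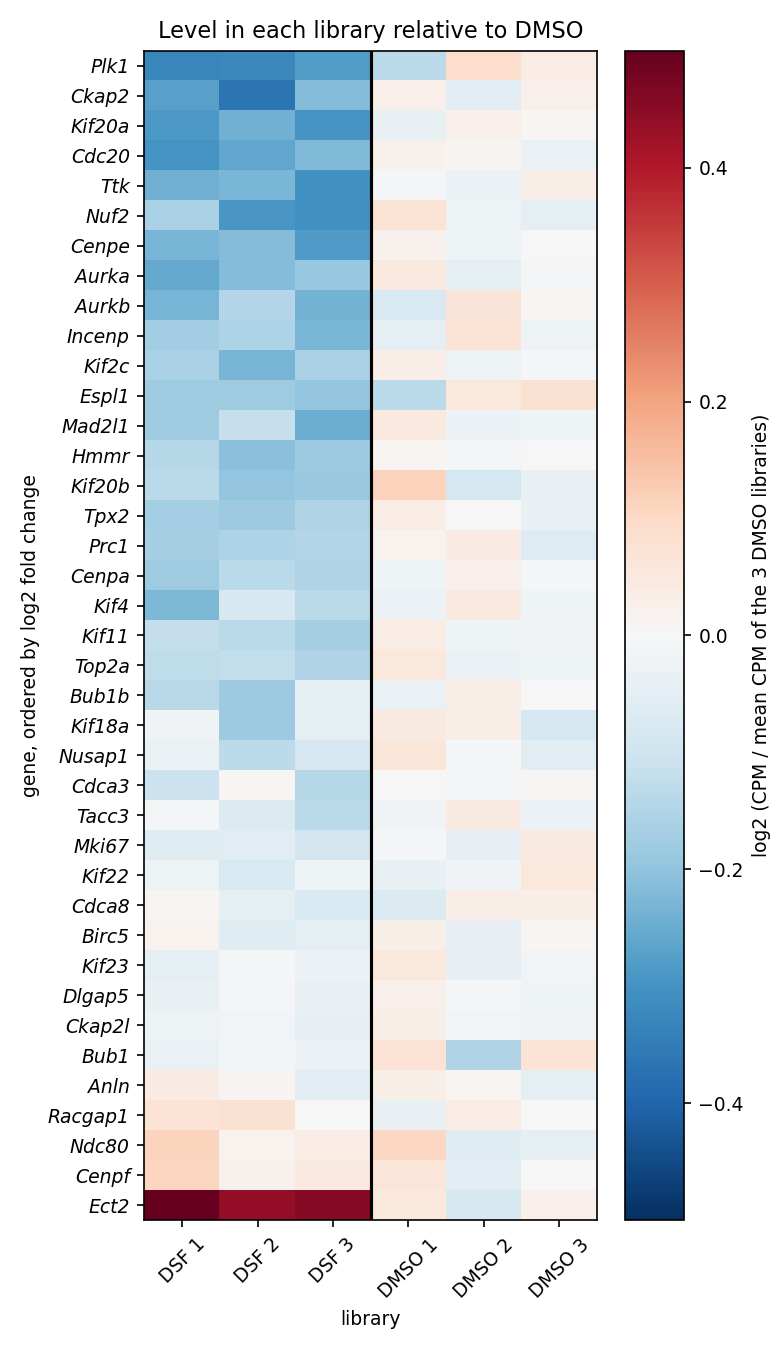
Level of each gene in each library as log2 of its CPM over the mean CPM of the 3 DMSO libraries, with DSF libraries on the left and genes ordered by log2 fold change. The upper 21 rows are blue in all 3 DSF libraries, and the bottom row, Ect2, is red in all 3.

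Levels per length, in TPM, ranged widely among the genes. Cenpa, which encodes the centromeric histone H3 variant, was the highest, at 321, 321 and 307 TPM in the DSF libraries, against 367, 350.4 and 355 TPM in the DMSO libraries. Top2a, the gene of DNA topoisomerase II alpha, came next, at 226, 223 and 223 TPM with DSF and 248, 239.8 and 239 TPM with DMSO, and the levels of those 2 genes did not overlap. Behind them, Birc5, Incenp, Tacc3, Racgap1 and Mki67 each overlapped its neighbour in the order of mean level over the 6 libraries, at group means from 119 to 139 TPM with DSF and from 124 to 139 TPM with DMSO. At the low end were Ttk, Anln and Kif18a, with 13.8 to 14.4 TPM on average with DSF and 14.1 to 16.7 TPM with DMSO. The proliferation marker gene Mki67, whose product coats mitotic chromosomes, stood at 125, 125 and 122 TPM in the DSF libraries, against 125, 127 and 139 TPM in the DMSO libraries.

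**Figure D4:**
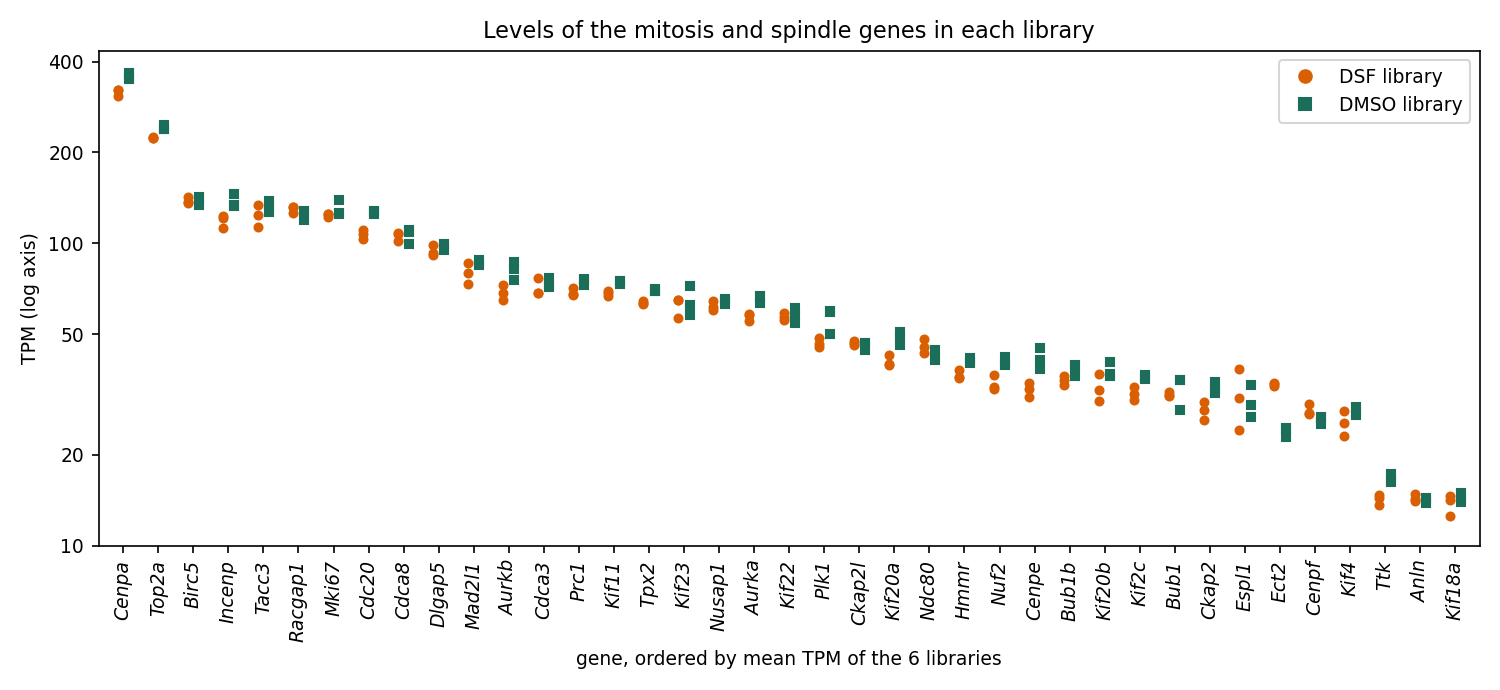
TPM of each gene in each library on a log axis, with DSF libraries as circles to the left of DMSO libraries as squares, and genes ordered by mean level. Levels span from 12.6 TPM (Kif18a, DSF library 2) to 367 TPM (Cenpa, DMSO library 1), and Ect2 is the gene whose groups stand farthest apart with DSF above DMSO.

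Counts by role, here and in the paragraphs that follow, stand against 11.3% lower and 11.6% higher among all genes tested. Differences between the roles were not tested. Among the mitotic kinases, 4 of 5 fell. Plk1, the Polo-like kinase of mitotic entry and centrosome maturation, had 70.4, 70.7 and 72.7 CPM in the DSF libraries, against 80.7, 93.8 and 90.6 CPM in the DMSO libraries. All 3 DSF libraries were lower than all 3 DMSO libraries, and the fall of 19.4% was the deepest of the 39 genes (log2 fold change -0.31 ± 0.052 (SE), adjusted p = 2.33e-05, edgeR). Aurka, the Aurora kinase of centrosomes and spindle poles, had 70.3, 72.2 and 73.6 CPM in the DSF libraries, against 86.8, 81.3 and 83.7 CPM in the DMSO libraries, without overlap. Its change was -0.22 on the log2 scale (edgeR's adjusted p = 0.000641). Aurkb, the kinase of the chromosomal passenger complex, had 82.9, 88.2 and 82.7 CPM in the DSF libraries, against 92.4, 102 and 98.1 CPM in the DMSO libraries. It fell by 13.3% (log2 fold change -0.21 ± 0.048 (SE), adjusted p = 0.00167, edgeR). Ttk, also called MPS1, starts checkpoint signalling at kinetochores, and it fell by 16.3% at a low level, 29.3 ± 0.81 CPM with DSF and 34.9 ± 0.781 CPM with DMSO (SD, n = 3 each). Bub1, a checkpoint kinase, had 73.1, 74.1 and 73.2 CPM in the DSF libraries, against 78.5, 67.4 and 78.3 CPM in the DMSO libraries. DMSO library 2 was the lowest of the 6 and the groups overlapped, with a log2 fold change of -0.024 ± 0.053 (SE) that missed the threshold (edgeR's adjusted p = 0.814).

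Of the 5 kinetochore and centromere genes, 3 fell. Cenpe, a kinesin that carries chromosomes along microtubules to the metaphase plate, had 159.6, 162 and 154 CPM in the DSF libraries, against 191, 185 and 188 CPM in the DMSO libraries. The groups were apart by a wider margin than the spread within either, and the fall was 15.6% (log2 fold change -0.24 ± 0.037 (SE), adjusted p = 5.67e-06, edgeR). Cenpa had 311, 319.7 and 317 CPM in the DSF libraries, against 346, 357 and 350.2 CPM in the DMSO libraries. It fell by 10.1% (log2 fold change -0.15 ± 0.032 (SE), adjusted p = 0.000502, edgeR). The members of the NDC80 complex, which grips microtubules, differed in their calls. Nuf2 had 54.4, 49.6 and 49.2 CPM in the DSF libraries, against 63.7, 59.7 and 58.9 CPM in the DMSO libraries, all lower with DSF. Its partner Ndc80 had 73.4, 68.7 and 69.7 CPM in the DSF libraries, against 72.9, 65.1 and 65.7 CPM in the DMSO libraries, and the groups overlapped. The log2 fold changes were -0.25 ± 0.053 for Nuf2 and 0.057 ± 0.051 (SE) for Ndc80, with edgeR's adjusted p = 0.000528 and 0.501, and the difference between the 2 genes was not tested. Cenpf, a large protein of the outer kinetochore, had 240.3, 226 and 231 CPM in the DSF libraries, against 232, 214 and 222 CPM in the DMSO libraries. In CPM the groups overlapped and it did not pass (log2 fold change 0.060 ± 0.037 (SE), adjusted p = 0.285, edgeR), although its TPM were higher in every DSF library.

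Of 4 genes of the checkpoint and of anaphase onset, 3 fell. Cdc20, which activates the anaphase-promoting complex and is the target of the checkpoint, had 126, 129 and 132 CPM in the DSF libraries, against 157, 156 and 151 CPM in the DMSO libraries. It was lower in every DSF library, by 16.5% on average (log2 fold change -0.26 ± 0.040 (SE), adjusted p = 6.36e-06, edgeR). Exons of Cdc20 overlap those of Elovl1 on the opposite strand, and no source used here says if reads were assigned by strand. Mad2l1, which encodes the checkpoint protein MAD2 that sequesters CDC20, had 115, 119.9 and 109 CPM in the DSF libraries, against 134, 127 and 128 CPM in the DMSO libraries, and fell by 11.7%. Its TPM were 86.2, 80.1 and 73.7 with DSF and 87.9, 84.7 and 85.5 with DMSO, and the groups overlapped. Espl1, the gene of separase, which cleaves cohesin, had 80.3, 80.4 and 79.4 CPM in the DSF libraries, against 82.7, 94.1 and 95.7 CPM in the DMSO libraries. The groups did not overlap in CPM, but its TPM were 38.5, 24.1 and 30.7 with DSF and 34, 26.6 and 29.2 with DMSO and did overlap, and on log2(TPM + 1) the log2 fold change turned to 0.034 (limma's adjusted p = 0.931). By edgeR the change of Espl1 was -0.18 ± 0.051 (SE, adjusted p = 0.00764), and leaving out DMSO library 3 ended its call (edgeR's adjusted p = 0.0716). Bub1b, which encodes the checkpoint protein BUBR1, was the nearest to the threshold of the genes that did not pass, at 87.1, 84.5 and 92.7 CPM in the DSF libraries, against 93.5, 97.9 and 95.8 CPM in the DMSO libraries. No DSF library reached the lowest DMSO library, yet edgeR's adjusted p was 0.0643 for a log2 fold change of -0.12 ± 0.047 (SE). It passed without DSF library 3 or DMSO library 1 (edgeR's adjusted p = 0.0419 and 0.0489).

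The chromosomal passenger complex corrects wrong attachments and then moves to the cell's midzone. Besides Aurkb, its scaffold gene Incenp fell, at 191, 194 and 184 CPM in the DSF libraries, against 209, 226 and 212 CPM in the DMSO libraries (log2 fold change -0.19 ± 0.038 (SE), adjusted p = 0.000384, edgeR). Birc5, the gene of survivin, had 91.5, 86.6 and 87.3 CPM in the DSF libraries, against 92.3, 87.8 and 91 CPM in the DMSO libraries, with overlapping groups. Cdca8, the gene of borealin, had 117, 113 and 111 CPM in the DSF libraries, against 111, 119 and 119 CPM in the DMSO libraries, again with overlap. Both missed the threshold (edgeR's adjusted p = 0.71 for Birc5 and 0.602 for Cdca8), and their 95% intervals on the log2 scale, -0.12 to 0.063 and -0.13 to 0.050, included 0. Thus 2 genes of the complex fell and 2 did not pass.

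Of 8 kinesin genes, 5 fell. Kif20a, a motor of the central spindle that brings Plk1 and Aurkb there, had 104, 108 and 104 CPM in the DSF libraries, against 124, 129 and 128 CPM in the DMSO libraries. The groups were far apart for their spread, and the fall was 17.3% (log2 fold change -0.27 ± 0.042 (SE), adjusted p = 6.72e-06, edgeR). Exons of Kif20a overlap those of Cdc23 on the opposite strand. Kif11, the motor that pushes spindle poles apart, had 269.7, 266 and 261 CPM in the DSF libraries, against 301, 288 and 289 CPM in the DMSO libraries, lower in every DSF library (log2 fold change -0.14 ± 0.034 (SE), adjusted p = 0.00222, edgeR). Kif2c, which depolymerises microtubules at centromeres, fell by 12%, with 64.6, 61.6 and 64.7 CPM with DSF and 74, 71.1 and 72 CPM with DMSO. Kif4, the motor that sets midzone length with Prc1, was the called member nearest to the threshold, at 82.3, 90.9 and 87.5 CPM in the DSF libraries, against 94.2, 99.5 and 94.8 CPM in the DMSO libraries (log2 fold change -0.15 ± 0.048 (SE), adjusted p = 0.0239, edgeR). Its call ended without DSF library 1 or 3 or DMSO library 2 (edgeR's adjusted p = 0.167, 0.0682 and 0.114). Kif20b, needed for late cytokinesis, had 86.3, 82.6 and 83.4 CPM in the DSF libraries, against 103, 89.3 and 92.4 CPM in the DMSO libraries. It fell by 11.2% (edgeR's adjusted p = 0.0117), and that call ended without DSF library 2 or 3 or DMSO library 1 (edgeR's adjusted p = 0.0663, 0.0533 and 0.107). Kif18a, Kif22 and Kif23 did not pass. Kif23, the motor subunit of centralspindlin, had 99.6, 102 and 101 CPM in the DSF libraries, against 107, 99.8 and 102 CPM in the DMSO libraries, where the DSF values lay inside or at the edge of the DMSO range.

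Spindle assembly factors were divided, with 3 of 7 lower and 4 that did not pass. Ckap2, a microtubule-stabilising protein of spindle poles, had 53.3, 49.8 and 55.3 CPM in the DSF libraries, against 65.5, 61.9 and 65.4 CPM in the DMSO libraries. All DSF libraries were lower, and the fall of 17.8% was among the largest of the members (log2 fold change -0.28 ± 0.052 (SE), adjusted p = 8.53e-05, edgeR). Tpx2, which activates Aurora A on spindle microtubules, had 167, 166 and 169 CPM in the DSF libraries, against 193, 188 and 183 CPM in the DMSO libraries, without overlap (log2 fold change -0.17 ± 0.037 (SE), adjusted p = 0.000812, edgeR). Hmmr, a spindle pole adaptor, fell by 11.6%, at 106 ± 2.5 CPM with DSF and 119.9 ± 0.797 CPM with DMSO (SD, n = 3 each). Tacc3, which bridges microtubules of the kinetochore fibre, had 148, 142 and 136 CPM in the DSF libraries, against 148, 154 and 146 CPM in the DMSO libraries. The groups overlapped and it did not pass (log2 fold change -0.071 ± 0.041 (SE), adjusted p = 0.241, edgeR). Nusap1, Dlgap5 and Ckap2l had log2 fold changes from -0.082 to -0.027, with adjusted p of 0.167 to 0.733 by edgeR. The paralogues Ckap2 and Ckap2l thus stood at -0.28 and -0.027, a difference that was not tested.

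The cytokinesis genes held the only member that rose. Ect2, the exchange factor that activates RhoA at the division plane, had 102, 96.8 and 97.9 CPM in the DSF libraries, against 73.9, 67.6 and 72.5 CPM in the DMSO libraries. Every DSF library was above every DMSO library, and the rise was 1.39-fold (log2 fold change 0.47 ± 0.048 (SE), adjusted p = 3.33e-09, edgeR). Its level per length was 34.6, 33.7 and 34.2 TPM with DSF, against 24.4, 22.9 and 24.4 TPM with DMSO. Ect2 lies on chromosome 3 of GRCm38 at 27097222 to 27153878, and its exons overlap no other annotated gene. Racgap1, the GTPase-activating subunit of centralspindlin that recruits ECT2, had 258, 259.9 and 247 CPM in the DSF libraries, against 240.0, 253 and 246 CPM in the DMSO libraries, with overlap, and did not pass (log2 fold change 0.050 ± 0.035 (SE), adjusted p = 0.354, edgeR). Anln, the furrow scaffold anillin, had 43.4, 42.6 and 40.7 CPM in the DSF libraries, against 43.2, 42.6 and 41 CPM in the DMSO libraries, and its 95% interval on the log2 scale was -0.11 to 0.11. Prc1, which bundles antiparallel microtubules of the midzone, went down, at 137, 138 and 138 CPM in the DSF libraries, against 155, 158 and 147 CPM in the DMSO libraries (log2 fold change -0.15 ± 0.040 (SE), adjusted p = 0.00406, edgeR).

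Of the remaining 3 genes, Top2a fell, at 615, 616 and 606 CPM in the DSF libraries, against 698, 658 and 659 CPM in the DMSO libraries (log2 fold change -0.13 ± 0.032 (SE), adjusted p = 0.00213, edgeR). This was the smallest change among the genes called. Mki67 had 980.3, 985 and 958 CPM in the DSF libraries, against 1018, 993 and 1053 CPM in the DMSO libraries. All DSF values were lower than all DMSO values, by a narrow margin, and it did not pass edgeR's test (log2 fold change -0.068 ± 0.031 (SE), adjusted p = 0.122). Mki67 passed when a trend of gene length was taken out of each library (edgeR's adjusted p = 0.0014). Cdca3, an F-box-like protein that promotes the breakdown of the kinase WEE1 in frog egg extracts, had 70.7, 76.5 and 68.9 CPM in the DSF libraries, against 76.1, 75.6 and 76.4 CPM in the DMSO libraries and did not pass (edgeR's adjusted p = 0.282). Opposite-strand exon overlap with another gene was found in 11 of the 39 genes, and Top2a shares exon sequence with Gm23451 in the same orientation, which leaves their counts uncertain. Besides Cdc20 and Kif20a, the 11 are Cdca8, Ckap2l, Kif18a, Kif22, Kif4, Nusap1, Plk1, Prc1 and Tacc3. Among the other genes named, Pkmyt1, Cdc25b, Rbl2, E2f7 and Cdc23 have opposite-strand overlaps, and Foxm1 overlaps Gm44596 and Tex52 on its own strand.

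The other genes of mitotic entry held the largest change in the pathway. Counts in these lists stand against 11.3% lower and 11.6% higher among all genes tested. Of 21 genes of the CDK1 switch, 8 fell (38.1%) and 2 rose (9.52%), and 1 rose without DSF library 2, DSF library 3 or DMSO library 3. Wee1, the kinase that restrains CDK1 by phosphorylating it, had 99.1, 89.9 and 104 CPM in the DSF libraries, against 32.6, 35.3 and 34.4 CPM in the DMSO libraries. Every DSF library lay far above every DMSO library, a 2.87-fold rise (log2 fold change 1.52 ± 0.056 (SE), adjusted p = 1.05e-19, edgeR). The related kinase gene Pkmyt1 rose, at 47.1 ± 1.06 CPM with DSF and 41.2 ± 4.41 CPM with DMSO (adjusted p = 0.0217, edgeR). Its groups nearly touched, at 46.00 CPM in DSF library 1 and 45.94 CPM in DMSO library 2. On the activating side, Ccnb1, the gene of cyclin B1, had 170.2, 177 and 173 CPM in the DSF libraries, against 217, 207 and 194 CPM in the DMSO libraries, lower in every DSF library (log2 fold change -0.25 ± 0.040 (SE), adjusted p = 1.53e-05, edgeR). Cdk1 had 104, 105 and 106 CPM in the DSF libraries, against 126, 119 and 113 CPM in the DMSO libraries and fell by 11.9% (edgeR's adjusted p = 0.00236). Pbk, a mitotic kinase gene, fell by 23.9%, at 24.5 ± 0.72 CPM with DSF and 32.2 ± 0.453 CPM with DMSO (SD, n = 3 each). Ccnb2, at 109.6 ± 4.44 CPM with DSF and 106 ± 1.11 CPM with DMSO, and Cdc25b, at 104 ± 4.48 CPM with DSF and 108 ± 5.16 CPM with DMSO, did not pass.

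Of 22 regulators of G2 and M phase transcription, 5 rose (22.7%, against 11.6% of all genes) and 3 fell (13.6%, near the 11.3% of all genes). Lin54, the MuvB subunit that contacts the CHR, had 63.3, 57.4 and 58.5 CPM in the DSF libraries, against 48.3, 46.9 and 46.6 CPM in the DMSO libraries. It was higher in every DSF library (log2 fold change 0.34 ± 0.052 (SE), adjusted p = 6.81e-06, edgeR). Rbl2, the gene of the pocket protein p130 of the repressing DREAM complex, had 121, 112 and 119 CPM in the DSF libraries, against 135, 130.3 and 138 CPM in the DMSO libraries and fell by 12.7% (edgeR's adjusted p = 0.000738). E2f7, an E2F repressor gene, rose 1.26-fold, at 23.7 ± 1.78 CPM with DSF and 18.7 ± 0.44 CPM with DMSO (SD, n = 3 each). Foxm1, the main activator in mitosis, did not pass at 109 ± 3.46 CPM with DSF and 107 ± 4.58 CPM with DMSO, nor did Mybl2, at 56.9 ± 0.266 CPM with DSF and 52 ± 3.12 CPM with DMSO (edgeR's adjusted p = 0.753 for Foxm1 and 0.077 for Mybl2). The number that rose was 3 without DSF library 1 or 3, and the number that fell was 1 without DSF library 1, 2 or 3 or DMSO library 3.

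Outside the 39 genes, the same machinery holds further subunits and regulators. Of 41 other kinetochore and checkpoint genes, 8 fell (19.5%, against 11.3% of all genes) and 1 rose (2.44%, against 11.6%), at a median log2 fold change of -0.036. Those with the smallest p were Cenpi, a subunit of the inner kinetochore, and Sgo1, the protector of cohesin at centromeres. They had 0.826 and 0.831 of their DMSO levels (edgeR's adjusted p = 0.00138 and 0.00157). The number that fell was 4 without DSF library 2, and none rose without DSF library 3 or DMSO library 1. Of 19 genes of the anaphase-promoting complex and its regulators, 4 fell (21.1%) and 2 rose (10.5%). Fbxo5, whose product EMI1 inhibits the complex, stood at 41.8 ± 2.6 CPM with DSF and 48.9 ± 1.27 CPM with DMSO and fell, as did the subunit gene Cdc23 at 61.7 ± 1.89 CPM with DSF and 69.4 ± 2.53 CPM with DMSO, whereas the subunit gene Anapc2 rose, at 93.1 ± 3.14 CPM with DSF and 79.8 ± 0.603 CPM with DMSO (SD, n = 3 each). For this list 1 gene fell without DSF library 2 and 2 without DSF library 3, and 1 rose without DSF library 2 or 3 or DMSO library 1 or 3.

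Of 49 other spindle, centrosome and cytokinesis genes, 7 fell (14.3%) and 5 rose (10.2%), shares near the 11.3% and 11.6% of all genes. Aspm, the spindle pole protein whose loss causes small brains in humans and mice, had 363, 349 and 365 CPM in the DSF libraries, against 211, 195 and 211 CPM in the DMSO libraries. Its groups were far apart, and the rise was 1.75-fold (log2 fold change 0.81 ± 0.036 (SE), adjusted p = 1.39e-17, edgeR). The centriole gene Cep152 rose 1.28-fold, at 95.2 ± 1.49 CPM with DSF and 74.2 ± 5.4 CPM with DMSO. Arhgap11a, which encodes a GTPase-activating protein of dividing cells, fell by 12%, at 206 ± 2.68 CPM with DSF and 234 ± 4.42 CPM with DMSO (SD, n = 3 each). Without DSF library 3 or DMSO library 1, 4 genes of this list fell. Of 21 condensin and cohesin genes, 2 fell (9.52%) and 1 rose (4.76%), both below the shares of all genes. Esco2, a cohesin acetyltransferase, and Cdca5, the gene of sororin, fell to 0.831 and 0.892 of their DMSO levels, and the cohesin loader gene Mau2 rose 1.14-fold (edgeR's adjusted p = 0.00331, 0.0301 and 0.000974). For that list the number that fell was 1 without DSF library 2, DSF library 3 or DMSO library 1 and 4 without DMSO library 3, and 2 rose without DSF library 2 or DMSO library 1.

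DNA replication precedes mitosis. Of 48 genes of replication, 8 fell (16.7%, against 11.3% of all genes) and 4 rose (8.33%, against 11.6%), at a median log2 fold change of -0.038. Uhrf1, which maintains DNA methylation, rose 1.13-fold, at 259 ± 4.91 CPM with DSF and 230.1 ± 7.03 CPM with DMSO. The replication initiation gene Mcm10 fell, at 50.1 ± 1.74 CPM with DSF and 58.8 ± 2.47 CPM with DMSO, and so did Rrm2, a subunit gene of ribonucleotide reductase, at 145 ± 3.9 CPM with DSF and 161 ± 2.16 CPM with DMSO (SD, n = 3 each). The number that fell was 4 without DSF library 1, DSF library 3 or DMSO library 3 and 5 without DMSO library 1, and 2 rose without DSF library 3. Over all 7 lists together, 40 genes fell and 20 rose, where 11.3% of all genes fell and 11.6% rose. In the order given above, the lists held 21, 22, 41, 19, 49, 21 and 48 genes. The share called over them together was not computed, so the pooled counts here and below are not shown to exceed the background. Without DSF library 2, 26 fell, where 18.3% of all genes were called in either direction. Without DSF library 3, 25 fell and 13 rose, where 17.6% of all genes were called. On log2(TPM + 1) with limma, 5 fell and 8 rose, where 9.66% of all genes were called, so falls no longer outnumbered rises.

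**Figure D5:**
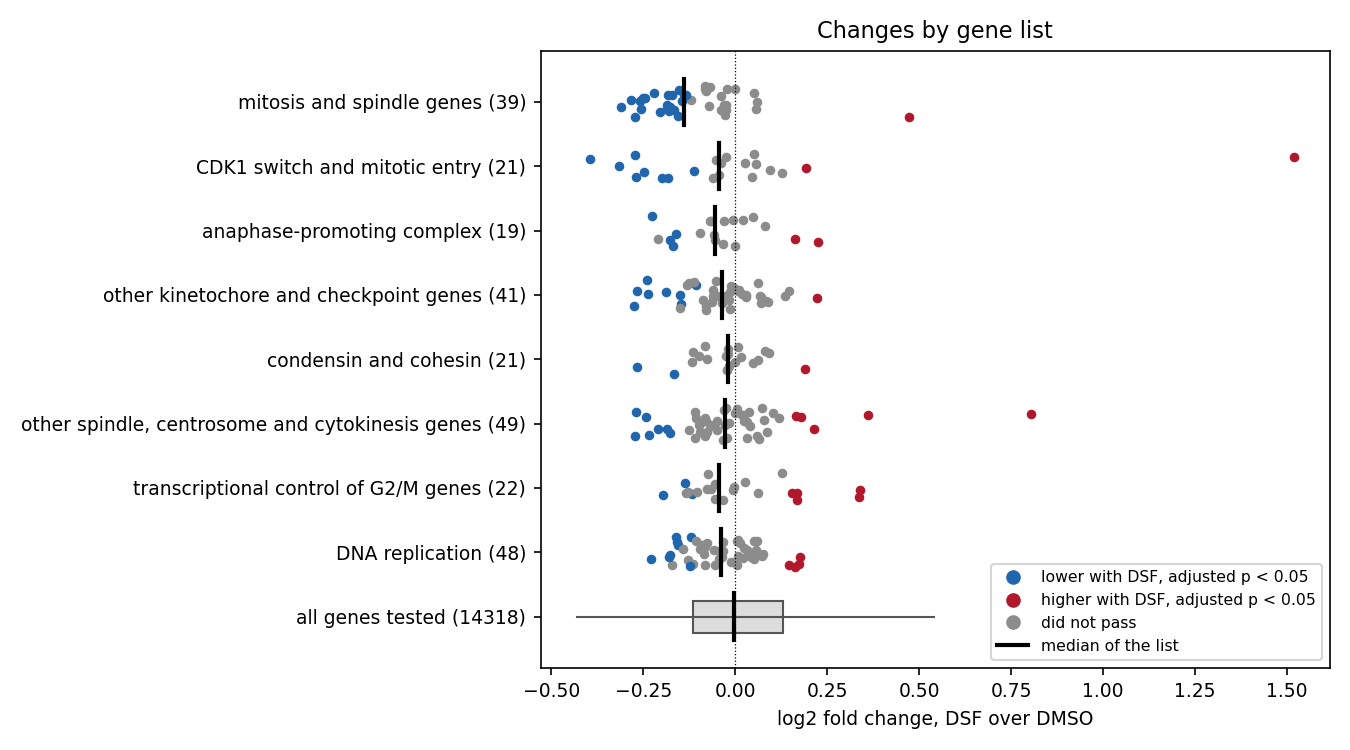
Log2 fold change, DSF over DMSO, of every gene in each list, with a black line at the list's median. The box spans the quartiles of all genes tested, with a thin line from the 5th to the 95th percentile; the mitosis and spindle genes have a median of -0.14, the other lists lie between -0.06 and -0.02, and the dots farthest to the right are Wee1 at 1.52 and Aspm at 0.81.

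The authors' deposited table of comparisons gives these genes in a further group, coded DC, that the labels do not explain and whose libraries were not analysed here. In the authors' deposited table, 20 of the 39 genes were lower and 1 higher in DF over DO, 0 were called in DC over DO, and 1 was lower and 20 higher in DC over DF, at an adjusted p under 0.05. Over all genes, the authors' deposited table calls 2319 in DF over DO, 93 in DC over DO and 1913 in DC over DF, equal to 16.2, 0.65 and 13.4% of the number of genes tested here, so the 0 of 39 in DC over DO is near the background. These comparisons share groups, so they are not separate evidence. By the authors' deposited table, Plk1 had log2 values of -0.31 for DF over DO, -0.068 for DC over DO and 0.24 for DC over DF. The values for Cdc20 in the authors' deposited table were -0.26, 0.009 and 0.26 in the same order. For Ect2 the authors' deposited table gives 0.47, 0.016 and -0.46.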

How the data were processed

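RNA-seq libraries of OT-I T cells (3 with DSF, 3 with DMSO) were compared from deposited tables of the whole series. The authors deposited estimated counts per gene and TPM (scaled by gene length and library size). They also deposited group mean TPM, the fold (ratio) and log2 ratio of the group codes, and p-values with their adjusted values. Per the submitters' processing notes, reads were placed on GRCm38, also called mm10, while no source used here names an aligner, counter or annotation release. Column letters were tied to group codes by the deposited group means: the DO value matches the A-column average in all 55536 genes within 0.0001 TPM.

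Estimated counts, of which 12.1 to 12.9% per library were not whole, were rounded. Genes passing edgeR's expression filter (14318) were scaled by TMM and tested with edgeR 4.0.16's robust quasi-likelihood fit in R 4.3.3, with Benjamini-Hochberg adjustment over all of them and a threshold of 0.05. Fold changes are DSF over DMSO, and CPM were computed by edgeR from the rounded counts. Standard errors were derived by dividing the size of each log2 fold change by the root of F. Alternatives used DESeq2 1.42.0, limma 3.58.1, other scalings, no filter, a replicate block, a length trend and single libraries left out. The fit was checked on simulated data. No 2 replicates differed by as little as counting error (chi-square per degree of freedom 2.21 to 4.27). Depth is the total count per library; intervals on shares are Wilson intervals and describe the windows counted. Promoter windows came from RefSeq on GRCm38.p6, and exon overlaps from GENCODE on GRCm38.

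The members, lists and tests were chosen with earlier results of these data known. Values in every library are given, per role, for the member with the smallest p and the one with the highest TPM, and for those beside the threshold. Per pathway list, up to 3 genes with the smallest p are named, some with group means or folds only. One gene that this rule names is not reported here. Other genes named with values were chosen after their values were seen.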

Additional observations from a re-analysis of the deposited data

How the results depend on the processing

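Of the 39 genes, 22 were called in the main test, where 22.9% of all genes were called in either direction. The same 22 were called with DESeq2's size factors, DESeq2's own test, limma-voom and no filter on low counts. In that order, these settings called 22.8, 19.3, 22.5 and 11.9% of all genes. With upper-quartile scaling there were 23, Bub1b being added, and with a length trend taken out 23, Mki67 being added. On log2(TPM + 1) with limma, 7 were called (6 lower), 1383 genes were called in all, the pathway lists gave 8 higher and 5 lower, and the median member changed by -0.1105; the cause was not tested. There, Ckap2l turned to 0.0249 and Espl1 to 0.0343. Anln, near 0 in the main test, turned to -0.0062 with upper-quartile scaling, -6e-04 with limma-voom, -8e-04 without the filter and -0.0154 with the length trend taken out. With single libraries left out, 21 to 22 members were called, where 17.6 to 20.3% of all genes were called in either direction. The pathway lists then gave 13 to 20 higher and 25 to 35 lower. In those fits the log2 fold change ranged from -0.0171 to 0.0286 for Anln, -0.0953 to 0.016 for Bub1 and -0.0474 to 8e-04 for Kif23. Counting error weighs most on the members with the fewest counts.

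Same-numbered libraries of the 2 groups correlated at 0.0454, 0.0349 and 0.0547 in their deviations, each library best with its own number, which is a hint from the data and not the design. With the number as a replicate block, 23 members were called (22 lower, Bub1b added), and 26.7% of all genes, against 22.9% without it. In the condensin and cohesin list 6 genes fell and 2 rose with the block, against 2 and 1 without it. The part of the gain over all genes in this was not tested.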
